A study of Mus musculus with 8 samples.

Results

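In mouse retinal organoids given a compound that degrades METTL3, 54 genes had lower RNA levels after 8 h and again after 24 h than untreated cells. They came from 11224 uniquely named genes that could be compared at both times. Among them were the tumour suppressor gene Trp53 and its target Cdkn1a, the neuropeptide precursor gene Tac1, the cystine transporter gene Slc7a11 and the retinoic acid enzyme gene Aldh1a3. The set was chosen on these values themselves. A gene entered it when its FPKM (fragments mapped per kilobase of transcript, scaled to sequencing depth) was at least 1.5-fold lower, with 0.1 added to both values, and the upper bound of its deposited interval at the treated time lay below the lower bound at 0 h, at both times. It also needed at least 1 FPKM and 10 estimated counts in 1 of the conditions and an OK status. Before names were left out, 61 genes met this rule, which is 0.543% of the genes tested at both times. The rule leaves out the names Bbs10, Jrk, Jrkl, Tmem126b and B230354K17Rik and all numbered Zfp, Rpl or Rps and Hist names. This removed 7 genes, the 5 named ones and Zfp41 and Zfp324. The 8 and 24 h values below are therefore a description of how the set was chosen, with no test.

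The cells carry a GFP reporter at Rx, and FKBP12F36V-HA is fused to the C-terminal end of the protein from both endogenous Mettl3 alleles. This genotype is shared by all 4 groups, including the untreated one, and is a single cell line. The tag is a degron, which the small molecule dTAG-13 links to a ubiquitin ligase. Groups were untreated cells (0 h) and cells given dTAG-13 at 125 nM for 1, 8 or 24 h, all at day 6 of differentiation in a medium with AGN, with 2 replicates each and 8 samples in all. The labels do not say whether the untreated cells received the solvent, nor whether replicates were separate cultures. The deposited tables hold 1 value per gene and condition, with both replicates combined, so no SD and no test over samples could be made, and the error given is the authors' interval, whose level is not stated. Each treated time stands in a table of its own with its own 0 h values from the same untreated libraries, so all 3 comparisons share their controls. Below, the 0 h value is that of the 8 h table, the 0 h values of the 24 h table differ from it by a constant factor (0.9965), and every ratio uses the 0 h value of its own table.

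METTL3 is the catalytic subunit of the complex that writes N6-methyladenosine (m6A) on messenger RNA as it is made. The mark is read by YTH proteins and is best known for shortening the life of the transcripts that carry it. It gathers in long internal exons, in last exons and in genes with few introns, because complexes left at exon junctions keep the writer away from short exons. The p53 protein, encoded by Trp53, is a transcription factor that answers DNA damage and other stress. It activates genes that halt the cell cycle, such as Cdkn1a, and is itself held low by the ubiquitin ligase Mdm2.

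Across the series, estimated counts summed to 31361518 to 32562075 per condition, and the Mettl3 transcript, whose protein is the target, was at 19.4 FPKM (10.7 to 28.1) at 0 h, 19.4 (10.8 to 28.0) at 8 h and 17.01 (8.501 to 25.5) at 24 h. The degradation itself acts on protein and is not visible in RNA. Retinal progenitor markers, 15 of 16 of which have a unique name, summed to 828.8 FPKM at 0 h, 1053.3 at 8 h and 1118.9 at 24 h. Rax was at 49.7, Pax6 at 125.7 and Lhx2 at 142.4 FPKM at 0 h, so markers of the labelled cell type were present, and of 14 tested markers 0 were called lower. Called higher were Mab21l1 at 8 h and, at 24 h, Mab21l1, Rax, Lhx2 and Tbx2, against 3.84% (8 h) and 4.08% (24 h) of all tested genes. Pluripotency markers, 12 of 12, summed to 348.2, 312.1 and 236.5 FPKM, with Dppa5a and Tdgf1 called lower at 24 h, where 1.56% of all tested genes were. Much of that sum is Dppa5a alone, at 199.7, 177 and 109 FPKM at 0, 8 and 24 h. At 24 h 9 of the 12 were below 0, against 48.6% of all tested genes, and Nanog was at -0.14. Pigment epithelium markers summed to 68.3, 85.4 and 104.2 FPKM with Tyr and Rpe65 listed at 0 before treatment. Much of that sum is Pmel, at 28.8, 37.9 and 60.3 FPKM and not called at either time. Neuron markers summed to 11.7, 11.8 and 10.3 FPKM with Pou4f2 listed at 0 before treatment. Sums for telencephalon, neural crest and endoderm lists were between 4 and 25 FPKM in every condition. None of the 54 genes is in any of these 7 lists, and the part of these shifts in the results was not tested. In bulk RNA, fewer cells of a type and less RNA per cell cannot be told apart.

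The 54 genes had a median log2 ratio to 0 h of -0.83 at 8 h (range -2.45 to -0.59) and of -0.93 at 24 h (range -3.37 to -0.605), against 0.01 at both times over all genes tested. At 8 h 18 and at 24 h 24 of the genes were at least 2-fold lower. By the same call, 88 of 11318 genes (0.778%) were lower at 8 h and 177 of 11322 (1.56%) at 24 h. Of the genes lower at 8 h or at 24 h, 27 were called at 8 h and not at 24 h, and 116 at 24 h and not at 8 h. Before treatment the genes were neither rare nor abundant as a set: the median was 14.98 FPKM (1.07 to 134.7) against 14.4 over all tested genes, and the 0 h interval reached a median of 22.7% of the value to each side against 26.0%. The fold threshold cut off 1 gene, Prpf38a, whose intervals were apart at both times and whose 8 h ratio fell just short of the limit. Just inside it were Ctnnbl1 (-0.586 and -0.773), Thoc5 (-0.589 and -0.643) and Cdca8 (-0.605 and -0.605). The intervals cut off 155 of the 209 genes that passed the fold at both times. Just outside the interval limit were Adamts15, Rsrp1 and Cebpz, and just inside Aoc2, Eif2b3 and Bbs12.

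**Figure D1:**
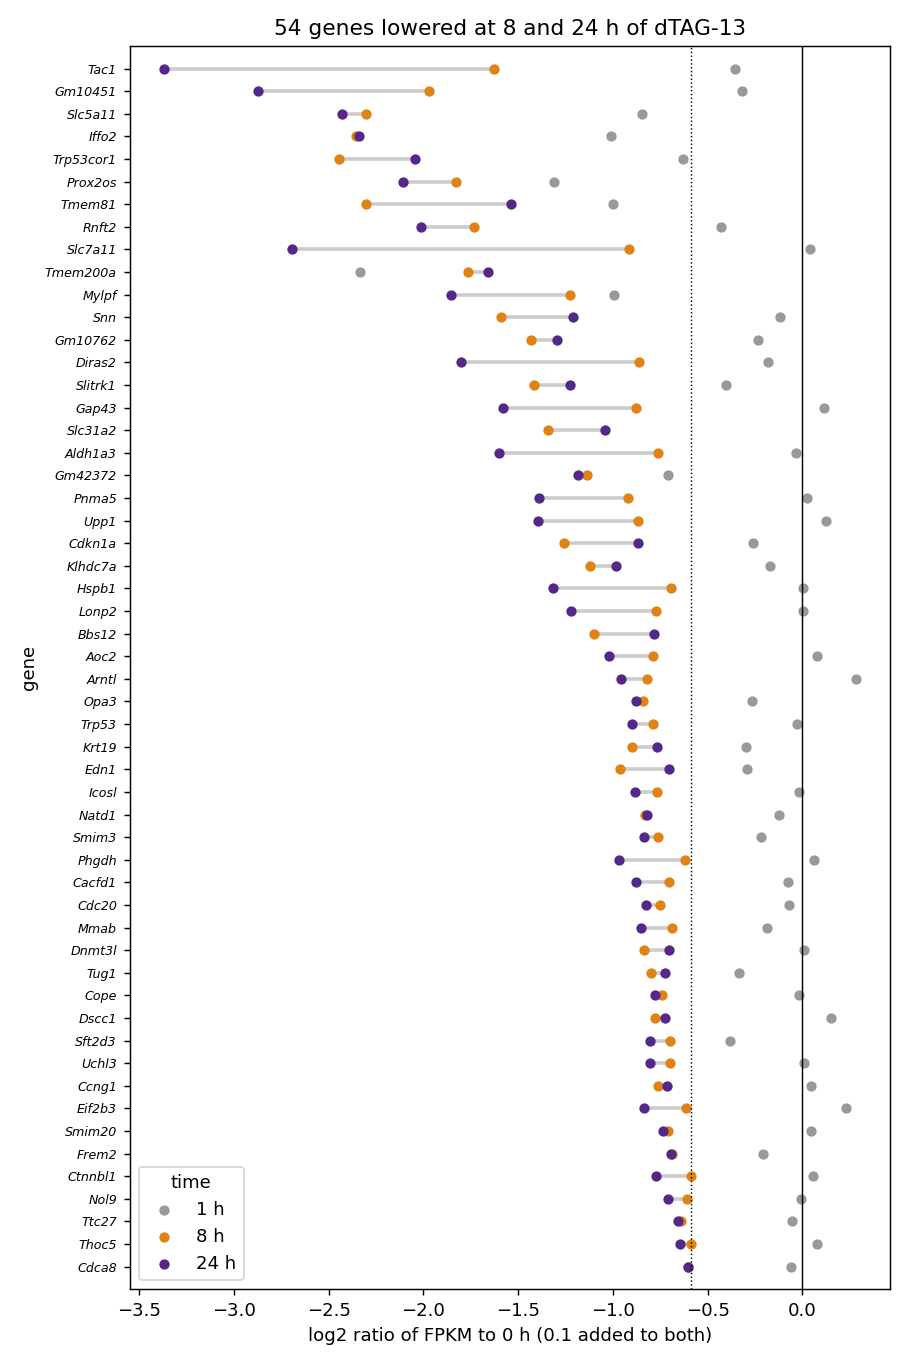
Each line is 1 of the 54 genes and each point its log2 ratio of FPKM to 0 h, with 0.1 added, at 1 h (grey), 8 h (orange) and 24 h (purple), with grey bars joining 8 and 24 h; the dotted line marks the 1.5-fold limit of the rule. Most 1 h points lie near 0 (median -0.10), and the genes that were lowest at 24 h are Tac1, Gm10451 and Slc7a11.

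The p53 branch held 4 of the genes. Cdkn1a, which encodes the cell cycle inhibitor p21 (chromosome 17, 29090976 to 29100727, plus strand), was at 48.1 (deposited interval 37.5 to 58.6) FPKM at 0 h, 20.1 (15.6 to 24.5) at 8 h and 26.4 (20.4 to 32.4) at 24 h. At 1 h its value was 39.7 (30.5 to 48.9) against 47.5 (36.4 to 58.6) in the same table, with overlapping intervals. The lowest value was that at 8 h, whose interval overlapped that at 24 h, with log2 ratios of -0.26, -1.26 and -0.87 at 1, 8 and 24 h. Trp53cor1, the long non-coding RNA known as lincRNA-p21 (chromosome 17, 29057430 to 29079179, minus strand), had the same order of values, again with overlapping 8 and 24 h intervals, at 1.77 (1.32 to 2.23) FPKM at 0 h, 0.244 (0.119 to 0.369) at 8 h and 0.355 (0.197 to 0.513) at 24 h. Its 1 h value was 1.11 (0.776 to 1.45) against 1.78 (1.29 to 2.26). Its ratio of -2.45 at 8 h was the lowest of all 54 genes at that time. These 2 genes are neighbours on chromosome 17, with 11796 bases and no tested gene between them, and are read away from each other.

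Ccng1, a cyclin G gene that p53 activates (chromosome 11, 40748552 to 40755311, minus strand), was one of the most abundant members at 115 (93.6 to 137) FPKM at 0 h, 67.97 (55.2 to 80.8) at 8 h and 70.3 (56.9 to 83.8) at 24 h. Trp53 itself (chromosome 11, 69580359 to 69591873, plus strand) was at 100.2 (80.2 to 120.2) FPKM at 0 h, 58.1 (46.6 to 69.5) at 8 h and 53.9 (42.9 to 64.9) at 24 h. At 1 h Ccng1 was at 117 FPKM against 114 at 0 h and Trp53 at 96.9 against 98.9. Their intervals overlapped at 1 h, and also between 8 and 24 h. All 4 genes were thus lower at both later times, Trp53cor1 and Cdkn1a by over 2-fold at 8 h and Trp53 and Ccng1 by less. Of 40 tested genes on a list of p53 targets, 4 were called lower at 8 h, these 3 targets and Plk2 (-0.86, a polo-like kinase gene). At 24 h 3 were, and Plk2 was at -0.48. Over all tested genes 0.778% were called lower at 8 h and 1.56% at 24 h. The 3 targets are members chosen for lower values, and they also enter the list's median and counts below 0. None of the 40 was called higher at 8 h, and Tigar (0.67), a metabolic target, was called higher at 24 h. The list's median was -0.26 at 8 h, with 30 of 40 below 0, and -0.17 at 24 h, with 25 of 40 below 0, against 48.4% and 48.6% of all tested genes below 0. Of the targets that were not called, Mdm2 had -0.28 and -0.05, and Bbc3, which encodes the death protein PUMA, -0.39 and -0.16. Among 14 tested regulators of p53, Trp53 was the one called lower. Ppm1d, a phosphatase gene that p53 also activates, was called higher at both times (0.72 and 0.67), and Hipk2, a kinase gene, at 8 h (0.71, and 0.51 at 24 h).

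**Figure D2:**
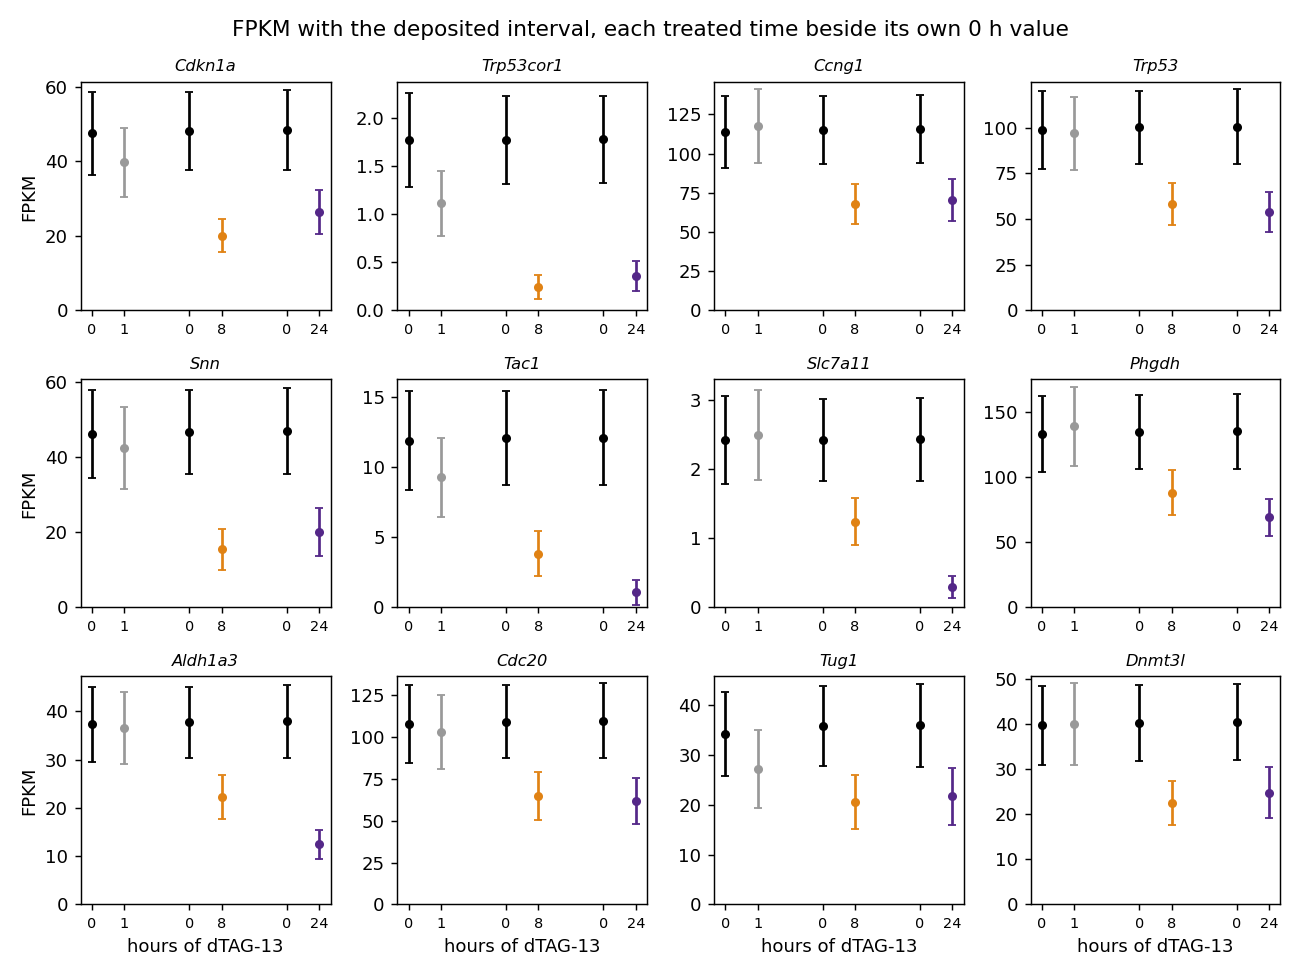
FPKM of 12 of the genes, each panel showing 3 pairs of values, the 0 h value of a table (black) beside its 1 h (grey), 8 h (orange) or 24 h (purple) value, with bars for the deposited interval and hours of dTAG-13 on the x axis. Cdkn1a, Trp53cor1 and Snn have their lowest value at 8 h, with intervals that overlap those at 24 h, while for Tac1, Slc7a11 and Aldh1a3 the 24 h interval lies below that at 8 h.

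The promoters of Cdkn1a and Ccng1 are shown because their windows hold a match to the p53 response element next to values that were lower at both times. That of Slc7a11 is shown for a pair of ATF4-type elements. RefSeq (GRCm38.p6) gave a window of 250 bases before to 50 bases after the start for 44 of the 54 genes and for 8799 tested genes, and the 250 bases before the start are printed here with the matches in capitals.
Cdkn1a (chr17:29090729-29090978, + strand): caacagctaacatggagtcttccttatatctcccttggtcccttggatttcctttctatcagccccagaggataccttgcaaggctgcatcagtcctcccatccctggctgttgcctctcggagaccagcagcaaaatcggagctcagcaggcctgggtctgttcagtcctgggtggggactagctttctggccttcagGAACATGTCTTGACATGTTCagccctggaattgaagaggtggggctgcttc
Ccng1 (chr11:40755287-40755536, - strand): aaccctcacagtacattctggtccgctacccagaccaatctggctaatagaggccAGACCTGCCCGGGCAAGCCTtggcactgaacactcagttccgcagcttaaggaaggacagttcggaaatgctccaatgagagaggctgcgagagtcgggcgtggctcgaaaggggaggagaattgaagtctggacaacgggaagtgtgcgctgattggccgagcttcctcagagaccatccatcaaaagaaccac
Slc7a11 (chr3:50443614-50443863, - strand): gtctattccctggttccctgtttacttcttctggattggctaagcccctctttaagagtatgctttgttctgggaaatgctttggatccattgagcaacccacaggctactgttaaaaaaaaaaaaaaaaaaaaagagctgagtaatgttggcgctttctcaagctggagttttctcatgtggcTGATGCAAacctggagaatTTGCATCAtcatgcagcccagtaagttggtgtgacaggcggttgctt
The p53 response element was searched as 20 bases without a spacer. The C and G of each half-site were fixed, and up to 2 mismatches were allowed elsewhere, also at the A or T positions between them. The element reads the same on both strands. The Cdkn1a match, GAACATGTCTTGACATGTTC, lies 51 to 32 bases before this start with 1 mismatch, and the Ccng1 match, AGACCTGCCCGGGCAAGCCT, lies 195 to 176 bases before it with 1 mismatch. The Ccng1 mismatch is at an A or T position between the fixed C and G of its first half-site. A match by these limits was found for 40 of the 8799 genes (0.455%). Cdkn1a and Ccng1 were the only ones of the 40 called lower at either time, where 0.778% (8 h) and 1.56% (24 h) of all tested genes were. Over the 40 genes the median log2 ratio was -0.07 at 8 h and -0.09 at 24 h. Elements of other starts and distant elements were not searched. TGATGCAA, a form of the element bound by ATF4 with C/EBP partners, was searched on both strands and found for 59 genes (0.671%). Slc7a11 had 2 matches and the windows of other members none. Over the 59 genes the median log2 ratio was -0.09 at 8 h and -0.02 at 24 h. At 8 h 1 of the 59 was called lower, and at 24 h 4 were called lower and 1 higher. CCAAT was found for 25 of 44 members (56.8%) against 44.2% of all windows, TTTGAA, the core of an element of cell cycle genes, for 5 (11.4%) against 13.7%, and CACGTG, the E-box bound by clock and MYC family proteins, for 8 (18.2%) against 12.2%, each on both strands.

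Among genes of amino acid supply and metabolism, Slc7a11 had the largest later drop of the set. It encodes the cystine and glutamate exchanger that feeds glutathione synthesis (chromosome 3, 49892526 to 50443614, minus strand). Its level was 2.43 (1.83 to 3.03) FPKM at 0 h, 1.24 (0.899 to 1.58) at 8 h and 0.293 (0.1299 to 0.455) at 24 h, with 2.503 FPKM at 1 h against 2.43 in the same table at 0 h. The intervals at 8 and 24 h did not overlap each other, so the order 0 h, 8 h, 24 h is seen in the deposited intervals at each step. Phgdh, the first enzyme of serine synthesis and the most abundant member, was at 135 (106 to 163) FPKM at 0 h, 87.8 (70.5 to 105) at 8 h and 69.04 (54.6 to 83.5) at 24 h. Of 25 tested genes of the amino acid response, 2 were called lower at 8 h, Slc7a11 and Phgdh. At 24 h 5 were, those and Asns (-0.73), Slc7a1 (-0.88) and Slc7a3 (-1.12), which make asparagine and import cationic amino acids. Over all tested genes 0.778% were called lower at 8 h and 1.56% at 24 h. Of the 25, 15 were below 0 at 8 h and 19 at 24 h, against 48.4% and 48.6% of all tested genes. Slc7a11 and Phgdh are members chosen for lower values, and they also enter these counts and the list's medians. Like the other lists, this one was chosen with earlier results of these data known. At 8 h Atf4 (0.13), Trib3 (0.22), Chac1 (0.44) and Cebpg (0.54) were above 0 and not called. The medians of that list were -0.11 at 1 h, -0.13 at 8 h and -0.36 at 24 h. Ddit4 was called higher at 24 h (0.70). In the list of NRF2 targets, which also holds Slc7a11, it was the one called lower of 18 tested, and the list's medians were -0.05 and 0.05.

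Most other metabolic genes were between 1.5-fold and 3-fold lower at 8 h. Aldh1a3, which makes retinoic acid and is known from the ventral retina (chromosome 7, 66390890 to 66427517, minus strand), was at 37.8 (30.4 to 45.1) FPKM at 0 h, 22.3 (17.8 to 26.8) at 8 h and 12.4 (9.498 to 15.4) at 24 h. Its 8 and 24 h intervals were apart too, and its earliest value was 36.5 FPKM at 1 h against 37.3 in the same table at 0 h. Upp1, a uridine phosphorylase gene, was at 41.2, 22.6 and 15.7 FPKM at 0, 8 and 24 h, and Lonp2, which encodes a peroxisomal protease, at 22.5, 13.1 and 9.61 FPKM at 0, 8 and 24 h. All 3 had their lowest value at 24 h, and for Upp1 and Lonp2 the 8 and 24 h intervals overlapped. Opa3, whose mutation causes optic atrophy, was level between the times at 16.9, 9.41 and 9.22 FPKM at 0, 8 and 24 h. Log2 ratios at 8 and 24 h were -0.69 and -0.85 for Mmab, an enzyme of the vitamin B12 pathway, -0.79 and -1.02 for Aoc2, a copper amine oxidase gene of the retina, -0.71 and -0.73 for Smim20, an assembly factor of cytochrome c oxidase, and -1.34 and -1.04 for Slc31a2, of the copper transporter family. Slc5a11, a sodium and inositol cotransporter gene, had -2.30 and -2.43 in FPKM against -0.39 and -0.43 in estimated counts.

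Genes known from neurons and from signalling held the deepest change. Tac1, the precursor of substance P (chromosome 6, 7554879 to 7565834, plus strand), was at 12.04 (8.69 to 15.4) FPKM at 0 h, 3.83 (2.26 to 5.41) at 8 h and 1.08 (0.196 to 1.96) at 24 h. The earliest value was 9.26 FPKM at 1 h against 11.9 in the same table at 0 h. Its ratio of -3.37 at 24 h was the lowest in the set at any time, and the 8 and 24 h intervals did not overlap. Gap43, a growth cone protein gene, was at 4.99 (3.65 to 6.33) FPKM at 0 h, 2.67 (1.82 to 3.53) at 8 h and 1.61 (0.973 to 2.25) at 24 h. Diras2, a Ras family GTPase gene, was at 1.86 (1.403 to 2.32) FPKM at 0 h, 0.978 (0.7004 to 1.26) at 8 h and 0.464 (0.296 to 0.633) at 24 h. Both were lower at 24 h than at 8 h, with intervals apart for Diras2 and overlapping for Gap43. Tac1 and Gap43 were the members among 14 tested neuropeptide and synapse genes, where Syt1 (-1.34 at 24 h) was the other gene called lower. This made 2 of 14 at 8 h and 3 at 24 h, against 0.778% and 1.56% of all tested genes. Tac1 and Gap43 were chosen for lower values at both times, so these counts partly restate the choice and say little about the list. The medians of that list were -0.13 and 0.00. Slitrk1, a neuronal membrane protein gene, was at 3.08, 1.09 and 1.26 FPKM at 0, 8 and 24 h, and Pnma5, of the paraneoplastic antigen family, at 5.88, 3.06 and 2.19 FPKM at 0, 8 and 24 h. Edn1, which encodes the peptide endothelin, was at 10.6, 5.38 and 6.48 FPKM at 0, 8 and 24 h. Icosl, a ligand gene of T cell costimulation, had log2 ratios of -0.77 and -0.89, and its neighbour Dnmt3l, the cofactor of de novo DNA methylation, had -0.84 and -0.70 from 40.2 FPKM at 0 h. These neighbours lie 5679 bases apart on chromosome 10, on the same strand with no tested gene between. Arntl, the clock factor BMAL1, was at 3.26, 1.802 and 1.63 FPKM at 0, 8 and 24 h, and at 1 h it was the highest of the set (0.28).

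Genes known from cell division, RNA handling, translation and protein transport or turnover were less than 2-fold lower at both times. Cdc20, an activator of the anaphase-promoting complex, was at 109 (87.2 to 131) FPKM at 0 h, 64.9 (50.7 to 79.1) at 8 h and 61.9 (48.2 to 75.7) at 24 h. Cdca8, which encodes borealin of the chromosomal passenger complex, was at 91.5 (73.1 to 109.8) FPKM at 0 h, 60.1 (47.7 to 72.5) at 8 h and 60.3 (47.7 to 72.95) at 24 h. Both had the same level at 8 and 24 h within their intervals. Dscc1, of the complex that loads replication clamps for sister chromatid cohesion, had log2 ratios of -0.78 and -0.73. Ratios were -0.59 and -0.77 for Ctnnbl1, which binds the spliceosome, -0.59 and -0.64 for Thoc5 of the mRNA export complex THO, -0.61 and -0.71 for Nol9, a kinase of ribosomal RNA processing, and -0.62 and -0.83 for Eif2b3, a subunit of the translation factor eIF2B. Cope, a coat protein gene of Golgi vesicles, was at 69.1, 41.4 and 40.4 FPKM at 0, 8 and 24 h, and Uchl3, a ubiquitin hydrolase gene, at 62.3, 38.4 and 35.8 FPKM at 0, 8 and 24 h. The ratios of Ttc27 were -0.64 and -0.66. None of the genes named in this group with a 1 h value was 1.5-fold lower at 1 h.

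Structural, membrane and stress genes made up another group. Snn, which encodes the small membrane protein stannin, was at 46.6 (35.4 to 57.8) FPKM at 0 h, 15.4 (9.95 to 20.8) at 8 h and 20.2 (13.8 to 26.5) at 24 h. Like Cdkn1a it had its lowest value at 8 h, with 8 and 24 h intervals that overlapped. Hspb1, a small heat shock protein gene, had its lowest value at 24 h, also with overlapping 8 and 24 h intervals, at 22.4 (17.4 to 27.4) FPKM at 0 h, 13.8 (10.4 to 17.2) at 8 h and 8.96 (6.52 to 11.4) at 24 h. Rnft2, a RING finger membrane protein gene, was at 5.83, 1.69 and 1.38 FPKM at 0, 8 and 24 h, and Iffo2, of the intermediate filament family, at 2.19, 0.347 and 0.354 FPKM at 0, 8 and 24 h. Both were over 3-fold lower at both times. Log2 ratios were -0.90 and -0.77 for the keratin gene Krt19, -0.69 and -0.69 for Frem2 of the basement membrane, -1.10 and -0.78 for Bbs12, a chaperonin-like gene of the cilium, -1.12 and -0.99 for the kelch domain gene Klhdc7a and -0.70 and -0.88 for Cacfd1. They were -0.83 and -0.82 for Natd1, -0.76 and -0.84 for Smim3, -0.70 and -0.80 for Sft2d3, -1.43 and -1.29 for Gm10762 and -1.14 and -1.18 for Gm42372. Bbs12 was the member among 33 tested cilium genes, of which 2 were called lower at both times, against 0.543% of all genes tested at both. The second, Bbs10, is another chaperonin-like gene and is one of the names the rule leaves out. Both genes met the fold and interval limits of the rule, so this count restates the choice. The median log2 ratio of the cilium list was -0.10 at 8 h and -0.10 at 24 h.

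Non-coding genes were 4 of the 54. Besides Trp53cor1 they were Gm10451, a long intergenic RNA (chromosome 12, 76444497 to 76451336, plus strand), Prox2os, annotated as antisense (chromosome 12, 85086374 to 85088228, plus strand), and Tug1, a widely expressed RNA also annotated as antisense (chromosome 11, 3639785 to 3649673, minus strand). Gm10451 was at 7.73 (4.82 to 10.6) FPKM at 0 h, 1.896 (0.891 to 2.901) at 8 h and 0.972 (0.2496 to 1.695) at 24 h. Tug1 was at 35.8 (27.7 to 43.9) FPKM at 0 h, 20.5 (15.2 to 25.8) at 8 h and 21.7 (16 to 27.4) at 24 h. Prox2os, near the lower limit of 1 FPKM, was at 1.08 (0.504 to 1.65) FPKM at 0 h, 0.232 (0.119 to 0.345) at 8 h and 0.174 (0.0121 to 0.337) at 24 h. The lowest value was that at 24 h for Gm10451 and Prox2os and that at 8 h for Tug1 and Trp53cor1, and the 8 and 24 h intervals of each of the 4 overlapped.

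The 1 h values did not choose the set, but share the 0 h libraries with the values that did. Of the 54 genes, 52 have a unique name in that table, and Slc31a2 and Bbs12 do not. Their median log2 ratio at 1 h was -0.10 (range -2.33 to 0.28) against 0.00 over 11174 tested genes, and 35 of 52 (67.3%) were below 0 against 50.1%. At 1 h 2 of the 52 were called lower, Tmem200a and Mylpf, where 0.206% of all tested genes were. All 54 are called at 8 and 24 h because the rule chose them there, so these counts do not compare the times. Without regard to intervals, 8 of the 52 were at least 1.5-fold lower, and 156 of 11174 genes (1.40%). These 8 were Tmem200a (-2.33), Prox2os (-1.31), Iffo2 (-1.01), Tmem81 (-0.997), Mylpf (-0.995), Slc5a11 (-0.85), Gm42372 (-0.71) and Trp53cor1 (-0.63). All but Mylpf were under 3 FPKM at 0 h. In estimated counts, Prox2os, Iffo2, Tmem81, Gm42372 and Trp53cor1 were also at least 1.5-fold lower at 1 h, while Tmem200a (0.27), Slc5a11 (0.07) and Mylpf (0.02) were not. For Tmem81, a membrane protein gene read from a single coding exon, FPKM was 2.103 at 0 h and 1.004 at 1 h, then 0.351 at 8 h and 0.671 at 24 h. The 315 genes raised at both times had a median of 0.06 at 1 h, with 35.9% below 0.

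Between 8 and 24 h, 31 of the 54 genes moved by less than 0.2 in log2 ratio, and the median difference (24 h minus 8 h) was -0.07. A larger fall by 24 h, of at least a further 1.5-fold, was seen for 8 genes: Slc7a11 (-1.78), Tac1 (-1.74), Diras2 (-0.94), Gm10451 (-0.90), Aldh1a3 (-0.84), Gap43 (-0.70), Mylpf (-0.63) and Hspb1 (-0.62). For 4 of them, Slc7a11, Tac1, Diras2 and Aldh1a3, the 8 and 24 h intervals were apart after the tables were put on 1 scale by the factor of 0.9965 between their 0 h values. Movement back towards 0 h was smaller and no intervals were apart. Tmem81 (0.77) was the one gene past 1.5-fold, followed by Trp53cor1 (0.40), Cdkn1a (0.39), Snn (0.38) and Bbs12 (0.32). The p53 targets Cdkn1a and Trp53cor1 are thus among the 5 genes with the highest 24 h ratio relative to 8 h, while Trp53 (-0.11) and Ccng1 (0.04) stayed within 0.2.

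**Figure D3:**
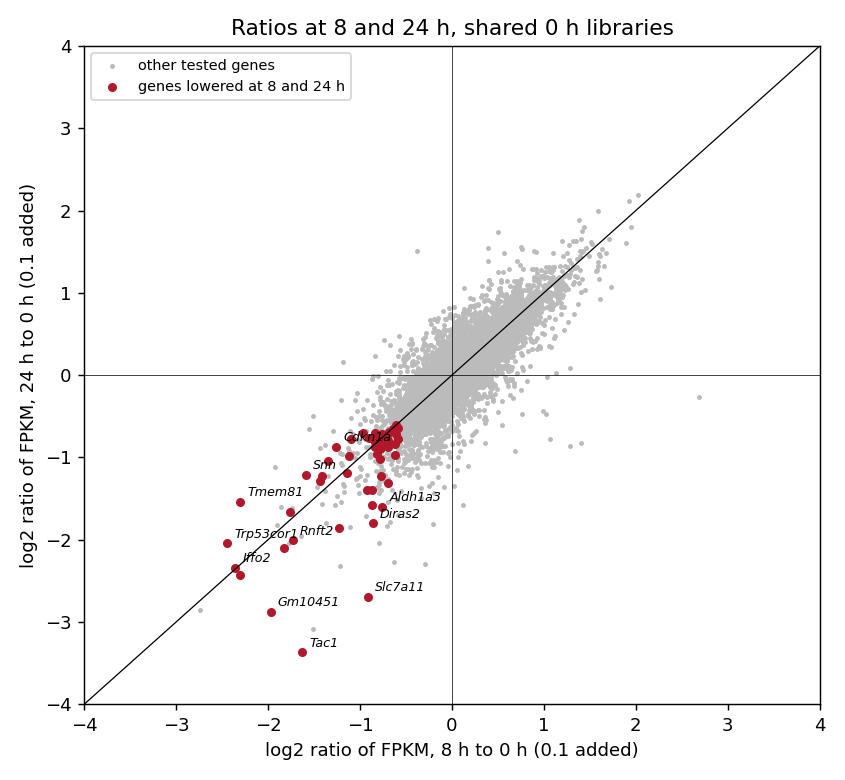
Log2 ratio of FPKM to 0 h at 8 h (x axis) and at 24 h (y axis) for the 11224 genes tested at both times, with the 54 genes in red and the diagonal marking equal ratios; both axes share the 0 h libraries, which by itself draws points along the diagonal. Tac1, Slc7a11, Diras2 and Aldh1a3 lie below the diagonal (lower at 24 h) and Tmem81 above it.

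The 2 deposited scales differ for a few of the genes. In estimated counts, 48 of the 54 were at least 1.5-fold lower at 8 h and 52 at 24 h, with medians of -0.77 and -0.95. Phgdh, Eif2b3 and Thoc5 were just short of the limit at 8 h, each at -0.58. The other 3 were far from their FPKM values. Tmem200a had 37.5 estimated counts at 0 h, 63.1 at 8 h and 54.1 at 24 h, a higher count after treatment, while it was at 2.42, 0.642 and 0.699 FPKM at 0, 8 and 24 h. Slc5a11 had 20.4, 15.3 and 14.8 estimated counts, a log2 ratio of -0.39 and -0.43, against -2.30 and -2.43 in FPKM. Mylpf, a muscle myosin light chain gene, had 139.8, 120.0 and 81.2 estimated counts and 21.4, 9.06 and 5.85 FPKM at 0, 8 and 24 h. For these 3 genes the direction or size of the change depends on the scale, and they include both genes called at 1 h. Tmem200a and Slc5a11 are also the 2 members with fewer than 100 estimated counts at 0 h.

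**Figure D4:**
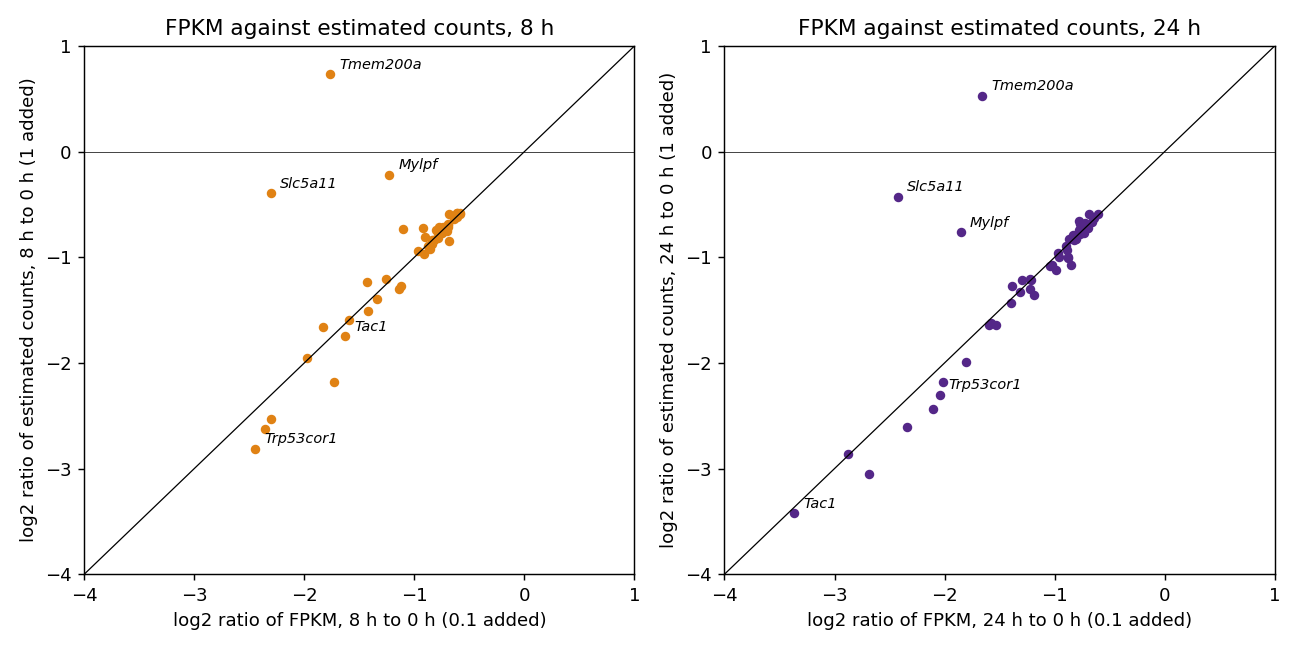
Log2 ratio to 0 h in FPKM (x axis, 0.1 added) against that in estimated counts (y axis, 1 added) for the 54 genes at 8 h (left) and 24 h (right), with a diagonal for equal ratios. Tmem200a, Slc5a11 and Mylpf lie far above the diagonal at both times, and Tmem200a lies above 0 in counts.

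Reads from overlapping genes are a further limit on single members. The loci of 8 of the 54 overlap another locus of at least 1 FPKM: Bbs12 (Cetn4), Cdc20 (Elovl1), Cdca8 (9930104L06Rik), Dnmt3l (Aire), Gm10762 (Zc3h6), Iffo2 (a locus named Aldh4a1, Gm21969, Iffo2 and Tas1r2), Snn (Litaf and Txndc11) and Tug1 (Morc2a). Since that locus also carries the name Iffo2, the values given for Iffo2 may cover only some of its reads. For Bbs12, Cdc20, Gm10762 and Snn, exons overlap those of the other gene on the opposite strand, and the use of strand in counting is not given in the sources used here, so their reads cannot be told apart from those of the partner. The members are spread over the genome, with 8 on chromosome 11, 7 on chromosome 4, 6 on chromosome 7 and none on chromosomes 9 and 19, where 625 and 389 genes were tested. Besides the 2 pairs above, Iffo2 and Klhdc7a follow each other on chromosome 4 with no tested gene in the 339837 bases between them.

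Gene structure was not used by the rule. The names the rule leaves out, however, were taken from the lowered genes only. They stayed among the raised genes and among all tested genes, so the shares below compare a set without such names with sets that may hold them. The effect of this on the shares was not tested. All 54 genes matched GENCODE M21 by name and 50 are protein-coding. Coding exon density (junctions per coding kilobase of a representative transcript) had a median of 6.32 among the 50 (quartiles 1.46 and 7.81), close to 6.17 over 10847 tested protein-coding genes, where the 313 protein-coding genes raised at both times had 1.55. With the longest transcript of each gene in its place, the median was 5.21 (41 genes) against 5.92, so the order of the first 2 depends on the transcript chosen. When all tested genes were split into 4 equal bins by density, the lowest bin held 18 of the 50 (36%), the next 6 (12%), then 14 (28%) and 12 (24%), against 85.3%, 13.1%, 1.6% and 0.0% of the raised genes. No coding junction at all was found for 12 of the 50 (24%), against 5.79% of all and 33.5% of the raised genes. These 12 were Bbs12, Diras2, Gm10762, Gm42372, Klhdc7a, Pnma5, Sft2d3, Slitrk1, Smim3, Snn, Tmem200a and Tmem81. Cdkn1a, Gap43, Hspb1, Opa3, Aoc2 and Frem2 completed the lowest bin, while Tac1, Cdca8, Thoc5, Arntl and Mylpf were in the highest.

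**Figure D5:**
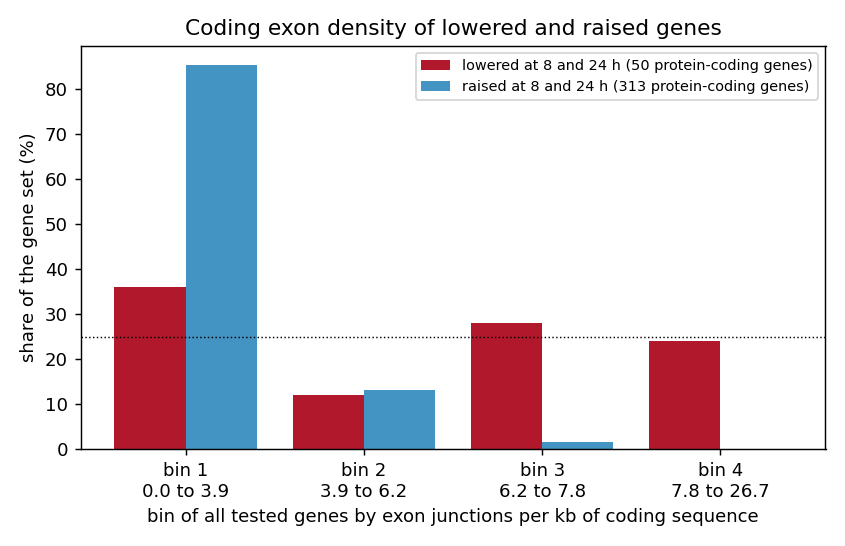
Share of the 50 protein-coding genes lowered at both times (red) and of the 313 raised at both times (blue) in each of 4 equal bins of all tested genes by coding exon density (x axis, junctions per coding kilobase), with a dotted line at the 25% that an even spread gives. Raised genes sit in the lowest bin (85.3%), and lowered genes are found in all 4, with 36% in the lowest. The names the rule leaves out are missing from the lowered genes only.

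The 50 genes also had shorter transcripts and fewer long internal exons than the tested genes as a whole. The median transcript length was 2342 bases against 3063 over all tested genes, the coding length 950 against 1389 and the last exon 922 against 1361. An internal exon of at least 400 bases was present in 3 of the 50 (6.0%), against 19.8% of all and 28.1% of the raised genes. Only 37 of the 50 had any internal exon, against 10134 of 10847, and the rest count as lacking a long one. Of 110 protein-coding genes lowered at 24 h and not called at 8 h, 11.8% had such a long exon and 2.73% no coding junction. Their medians were 2934 bases for the transcript, 1461 for the coding length and 1112 for the last exon. GGACT, a form of the m6A consensus, was searched on the sense strand of the exons and occurred 1.10 times per kilobase against 1.05 over all and 1.18 in the raised genes, and GC content was 51.9% against 50.2%. These are medians over genes, which are not replicates, and no test was made of them. Here too, the names the rule leaves out are missing from the 50 genes only.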

How the data were processed

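Polyadenylated RNA of 8 samples (4 groups of 2 replicates, from the sample titles) was sequenced with paired ends, per the labels. The deposited data, per the file headers, are 6 tables with 1 column per condition, of FPKM with interval bounds and a status, and of estimated counts, 1 of each kind for each treated time. Cufflinks 2.2.1, Cuffdiff and mm10 are named in the submitters' processing notes. The level of the interval, the use of strand and the aligner are not given in the sources used here. The 12 value columns not used hold further variances of the count tables. The labels also name a 2 h treatment, not analysed here, and repeated library preparation, which the tables do not separate. Loci without a name (4822 to 4904 per table, 1.03% to 1.04% of the estimated counts at 0 h) stayed out of the rules.

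From these, log2((FPKM at t + 0.1) / (FPKM at 0 h + 0.1)) was computed within each table, and ratios of estimated counts with 1 added. A gene was tested with a unique single name, an OK status in both conditions, and at least 1 FPKM and 10 estimated counts in 1 of them. It was called lower at 1.5-fold (log2 of 0.585) with intervals apart. No replicate values were used, so no edgeR-type fit was made and no p-value is given. The members and the 24 gene lists were chosen with earlier results of these data known. Every member is named, and values are given for the 12 with the lowest mean ratio, the 8 most abundant, those in a list, the 5 furthest down and the 5 furthest up between 8 and 24 h, those past 1.5-fold at 1 h, those whose counts were less than 1.5-fold lower, non-coding ones and those at the fold limit. Exon properties came from GENCODE M21 (GRCm38), where 99.95% of matched names overlapped their locus, using per gene the transcript of best APPRIS rank, ties going to the longest coding sequence. Promoter windows came from RefSeq (GRCm38.p6). Python 3.11.15 with pandas 2.3.3 and matplotlib 3.10.9 was used. Alternatives were other pseudocounts, minimum values and folds, counts in place of FPKM, centred ratios, other transcripts and fewer members.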

Additional observations from a re-analysis of the deposited data

How the results depend on the processing

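Of 43 alternatives, 35 stayed within 1.5 times of a count or within 0.1 of a median log2 ratio and kept the side of the exon density. The medians at 1 h (-0.098) and between 8 and 24 h (-0.074) are no larger than that 0.1, so staying within it says little about them. A fold threshold of 2 left 15 genes lowered at both times, 28 at 8 h and 64 at 24 h, and the fold threshold alone, without the intervals, gave 209, 321 and 557. An FPKM minimum of 5 gave 57 genes at 8 h and 37 at both times. For the 54 genes themselves, a pseudocount of 1 kept 45, estimated counts kept 48, a count minimum of 50 kept 53, and no FPKM minimum gave 60 including all 54. Counting the names the rule leaves out, chosen after seeing the data, gave 61. The median at 1 h ranged from -0.10 to -0.05, the latter in estimated counts, and was -0.07 without Tmem200a, Slc5a11 and Mylpf, also chosen after seeing the data. The median difference between 24 and 8 h ranged from -0.11 to -0.06. Taking the longest transcript of each gene moved the coding exon density of the lowered genes to 5.21 (41 genes), below the 5.92 of all tested genes, where the representative transcripts put it above; the cause was not tested, and the density of the set cannot be called higher or lower than that of all genes. No paired analysis was possible because each condition is a single column with its replicates combined. Precision is limited by this pooling and by the intervals, which reach about 23% of the value to each side at 0 h for the median gene.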

Other observations

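Lists of WNT, DNA repair, extracellular matrix, mitochondrial assembly, BMP and TGF-beta, FGF, hypoxia, Notch, cholesterol synthesis and m6A machinery genes held none of the 54 genes. The mitochondrial assembly gene Tmem126b was called lower at both times (-0.73 and -0.75) but is one of the names the rule leaves out. At 8 h and 24 h, 0 and 3 of 23 tested WNT genes, 0 and 1 of 38 DNA repair genes, 0 and 1 of 23 extracellular matrix genes, and 1 and 1 of 31 mitochondrial assembly genes were called lower, and none of the 25 BMP and TGF-beta, 17 FGF, 24 hypoxia, 17 Notch, 18 cholesterol synthesis and 11 m6A machinery genes tested. Called higher were 4 and 3 of the cholesterol synthesis genes (median log2 ratios 0.42 and 0.34), 4 and 4 of the m6A machinery genes (0.39 and 0.28), and 3 and 2 of the Notch genes (0.24 and 0.33). Further calls in that direction were 0 and 4 hypoxia, 1 and 2 BMP and TGF-beta, 2 and 2 DNA repair, 2 and 2 mitochondrial assembly, 0 and 1 extracellular matrix, and no WNT or FGF genes. Over all tested genes 3.84% and 4.08% were called higher at 8 and 24 h, and 0.778% and 1.56% were called lower. The list of cell cycle kinase inhibitors holds 1 of the 54 genes: of its 8 tested genes Cdkn1a was the one called lower at each time, and Cdkn2d, which encodes p19INK4D, was called higher at both (0.64 and 0.83).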
